A study of Mus musculus with 6 samples.

Results

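The genes described here are 52 mouse DNA damage repair genes. They were chosen by gene name from textbook repair pathways, with earlier results of these data known. Of these, 50 were measured as single-gene probe sets among the 19938 genes tested, and the other 2, Trp53 and Xrcc2, are not analysed here. They were read in brain cells of C57BL/6J mice, sorted by fluorescence from a dual reporter, GFP or RFP. The first group held 3 samples of GFP+ cortical neural progenitors. The second held 3 samples of RFP+ neuronal progeny, labelled only as brain with no region, and labelled as differentiated. Each sample was hybridised to 1 Affymetrix whole-transcript array, and the labels name no treatment other than the reporter sort. The animals' age and the promoters that drove the reporters are not given in the sources used here. Nor is it stated that samples of a group are from different animals, so p-values reflect only how these samples spread, which may be technical.

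DNA repair is a set of separate pathways that share a damage signal. Breaks through both strands are sensed by kinases such as ATM. They are then mended by homologous recombination or by end joining. Recombination copies the sister chromatid and therefore works in cells that have replicated their DNA, while end joining needs no copy. The Fanconi anaemia pathway clears crosslinks that block replication forks, mismatch repair corrects copying errors, and the excision pathways remove damaged bases and nucleotides in dividing and resting cells alike. Inherited loss of several of these genes causes small brain size or neurological disease. Cortical progenitors divide while the neurons they make do not.

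The labels were checked against marker genes. All 8 progenitor markers were higher in GFP+ and all 8 neuron markers higher in RFP+. All 25 measured replication and division genes were higher in GFP+ (median log2 difference 1.72, for example Mki67 at 5.44-fold and Mcm3 at 5.55-fold), with a summed intensity of 40032.5 to 42355.1 on GFP+ arrays and 11494.1 to 12583.9 on RFP+ arrays. Markers of endothelial cells (10 of 11 measured higher in GFP+) and of pericytes and mural cells (7 of 9) moved the same way. The summed endothelial markers ran from 2240.0 to 7110.4 on GFP+ arrays, lowest on GFP+ array 1, and from 829.4 to 1053.8 on RFP+ arrays, and the mural sums were 5533.9 to 7255.3 and 1121.0 to 1297.8. None of the 7 microglia markers and neither of the 2 measured red blood cell markers passed the test. No marker was listed at 0, and the part of other cell types or of cell division in the repair gene differences below was not tested. In sorted bulk samples, fewer cells that express a gene and less RNA per cell cannot be told apart.

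The repair genes ranged from more than 4-fold higher in GFP+ progenitors (Exo1, Fanci, Ung and Chek1) to 1.66-fold higher in RFP+ neurons (Fancg). Intensities were compared as log2(intensity + 16), GFP+ minus RFP+, with limma. At an adjusted p of 0.05, 24 of the 50 genes were higher in GFP+ progenitors, 1 was higher in RFP+ neurons and 25 did not pass. This compares with 13.7% of all 19938 genes called in GFP+ and 16.2% called in RFP+, or 30% in either direction. With array number as a block, fixed or random, 27 members were higher in GFP+, with Mre11a, Palb2 and Wrn added, and 1 in RFP+. Calls over all genes, in either direction, then rose from 5973 to 7366 (fixed) or 8178 (random). The median log2 difference of the 50 genes was 0.55 (0.39 without GFP+ array 3), beside -0.08 over all genes. For 26 genes every GFP+ array lay above every RFP+ array (19.9% of all genes), and for 3, Trp53bp1, Lig4 and Fancg, the reverse held (24.1% of all genes; 43.9% in either direction). A difference of at least 2-fold was reached by 15 genes, all higher in GFP+ (6.99% of all genes), and by 0 in RFP+ (5.97% of all genes). This count depends on the settings. With an offset of 64, Fancc (log2 difference 0.89) and Fancl (0.95) fell under 2-fold, and with averaged probe sets Nbn did (0.575). With an offset of 1, Xrcc3 reached 2-fold (1.005), and it also did with array weights (1.001). Without GFP+ array 3 or without RFP+ array 2, Fancc fell under 2-fold (0.86 and 0.999) and Xrcc3 reached it (1.052 and 1.06). Homologous recombination (8 of 12 measured genes higher in GFP+), the Fanconi anaemia pathway (5 of 9) and sensing and checkpoint genes (5 of 9) held 14 of those 15, and none of 4 nucleotide excision genes passed.

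**Figure D1:**
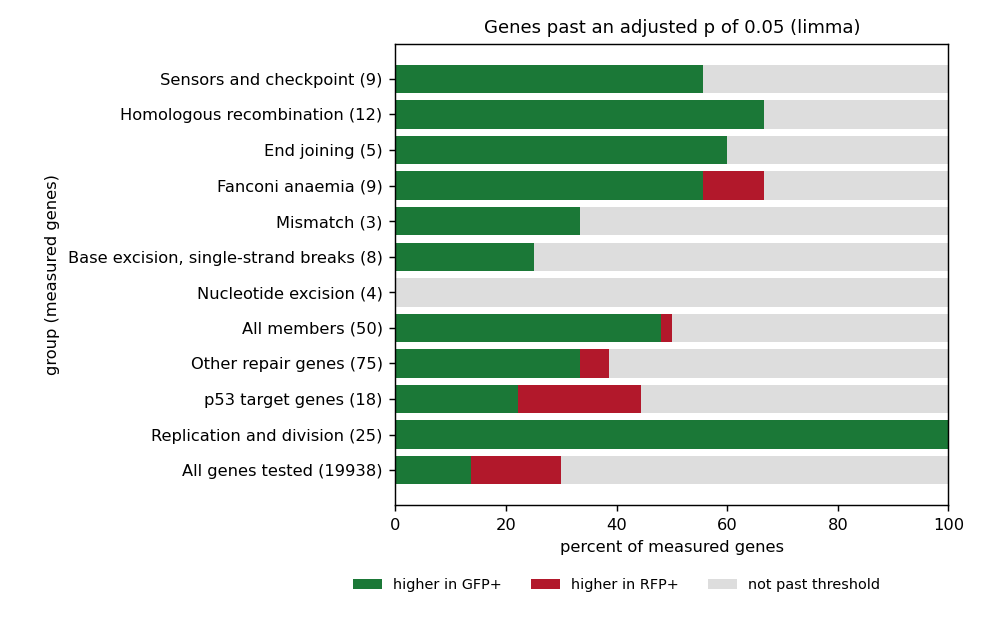
Percent of measured genes (horizontal axis, number measured in brackets) called higher in progenitors, called higher in neurons or not past an adjusted p of 0.05 by limma, for each repair pathway, for all 50 members, for 3 context lists and for all genes tested. Homologous recombination and Fanconi genes passed most often among the repair pathways, nucleotide excision genes not at all, and all 25 replication and division genes were higher in GFP+.

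Promoter sequences are shown because several of these genes carry the same short letters before their start. E2F factors, which switch on genes at the entry to S phase, bind sites of the type TTTCCCGC or TTTGGCGC or TTTCGCGC or TTTGCCGC. RefSeq promoter windows of 300 bases (250 before the start to 50 after, build GRCm38.p6) were available for 42 of the 50 genes, as 45 windows. These letters stood on either strand in 10 of the 45 windows (22.2%), belonging to 9 genes, and in 2.26% of all 32851 windows of the table (2.99% of the windows of tested genes). The 9 genes were Chek2, Bard1, Brca2, Msh6, Xrcc6 and Mdc1, all higher in GFP+, Rad51c and Msh3, which did not pass, and Fancg, the 1 gene higher in RFP+. In Msh3 and Rad51c more than 1 match was found, and those of Msh3 overlap each other. The stretches below lie wholly before the start, run 5′ to 3′ on the gene's own strand, and have the matched letters in capitals (GCGGGAAA is the reverse complement of TTTCCCGC). They belong to the 6 genes with such letters before the start and the largest differences in either direction, Fancg included as the gene that went the other way.

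Chek2 (chr5:110839791-110839880, plus strand): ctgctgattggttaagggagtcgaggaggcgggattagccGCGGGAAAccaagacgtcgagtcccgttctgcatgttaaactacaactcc
Bard1 (chr1:71103132-71103221, minus strand): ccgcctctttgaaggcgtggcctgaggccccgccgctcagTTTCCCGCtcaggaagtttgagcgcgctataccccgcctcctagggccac
Brca2 (chr5:150522413-150522502, plus strand): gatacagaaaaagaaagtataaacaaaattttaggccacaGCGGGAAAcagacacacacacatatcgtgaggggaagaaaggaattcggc
Fancg (chr4:43010304-43010393, minus strand): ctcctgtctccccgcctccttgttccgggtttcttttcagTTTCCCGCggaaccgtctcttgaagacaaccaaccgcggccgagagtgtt
Xrcc6 (chr15:82016283-82016368, plus strand): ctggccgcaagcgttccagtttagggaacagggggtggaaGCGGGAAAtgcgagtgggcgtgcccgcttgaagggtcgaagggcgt
Mdc1 (chr17:35841442-35841497, plus strand): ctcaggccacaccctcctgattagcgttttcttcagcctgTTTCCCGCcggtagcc

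In all 6 the match was TTTCCCGC, read on the gene's strand in Bard1, Fancg and Mdc1 and on the opposite strand in Chek2, Brca2 and Xrcc6. It began 152 bases before the start in Chek2, 209 in Bard1, 168 in Brca2, 52 in Fancg, 46 in Xrcc6 and 16 in Mdc1. Of the genes with a window, E2F-type letters stood in 6 of 19 higher in GFP+ (31.6%), in 2 of 22 that did not pass (9.09%) and in the 1 higher in RFP+, Fancg. Whether these letters go with the direction of a difference was not tested. The genes with the largest differences and a window, Fanci, Ung, Chek1 and Rad54l, had none of these letters in it. Chek2, which had them, came next, at a log2 difference of 1.707 beside 1.708 for Rad54l. CCAAT letters stood in 24 of the 45 windows (53.3%, against 37.4% of all windows and 37.4% of those of tested genes). The letters TTTGAA or TTCGAA of the cell cycle homology region stood in 4 (8.89%, against 19.2% and 16.5%). The median share of G and C bases was 60% in member windows, 57.3% in those of tested genes and 52.7% in all windows. Its part in these shares was not tested. A match describes letters only and is no measurement of binding.

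Both checkpoint kinase genes were more than 3-fold higher in the progenitors. Of the genes of the kinases upstream of them, Atr passed the threshold and Atm did not, and the difference between these genes was not tested. Chek1 encodes the kinase that halts the cycle when replication stalls. Its intensity was 549, 545 and 704 on GFP+ arrays 1 to 3 and 105, 93.9 and 152 on RFP+ arrays 1 to 3, which is 4.67-fold higher in GFP+ (log2 difference 2.22 ± 0.22 SE, adjusted p = 1.46e-07). Chek2, the kinase that acts after double-strand breaks, read 393, 577 and 545 in GFP+ and 132, 126 and 169.7 in RFP+, 3.27-fold higher in GFP+ (log2 difference 1.71 ± 0.21 SE, adjusted p = 3.46e-06). For both genes the lowest GFP+ array lay far above the highest RFP+ array. Both RFP+ means lay under 210.6, the mean 95th percentile of the 1015 olfactory receptor genes on the RFP+ arrays. That percentile is used here to mark levels close to background, since these genes are largely silent outside the nose. Their folds therefore depend on the offset of 16. With an offset of 1 the log2 difference of Chek1 was 2.37 and with an offset of 64 it was 1.88, and those of Chek2 were 1.81 and 1.45.

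Atr, the kinase gene that answers stalled forks and sits upstream of Chek1, read 564, 489 and 771 in GFP+ and 332, 344 and 371 in RFP+, 1.68-fold higher in GFP+ (log2 difference 0.75 ± 0.21 SE, adjusted p = 0.0111). Its 2 groups did not overlap, and GFP+ array 3 was the highest. The call was lost without that array (adjusted p = 0.0563) and without both arrays numbered 1 (0.0731). Atm, the kinase gene that answers double-strand breaks and sits upstream of Chek2, read 404, 621 and 967 in GFP+ and 589.6, 654 and 749 in RFP+ (log2 difference -0.08 ± 0.26 SE, adjusted p = 0.841). Here the GFP+ arrays spread over a wider range than the RFP+ arrays and enclosed all of them, and the 95% interval of the difference ran from -0.61 to 0.46.

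The MRN complex, which binds broken ends and recruits ATM, is made of the products of Mre11a, Rad50 and Nbn. Nbn, the subunit that signals to ATM, read 1264, 1199 and 1269 in GFP+ and 609, 519 and 593 in RFP+, 2.14-fold higher in GFP+ (log2 difference 1.1 ± 0.20 SE, adjusted p = 2.11e-04). The spread within each group was small for this gene, and the groups lay far apart, but its second, dim probe set did not pass (log2 difference 0.05). The nuclease gene Mre11a had means of 614 ± 177 against 397 ± 127 (SD, n = 3 each) and just missed the threshold (log2 difference 0.62 ± 0.24 SE, adjusted p = 0.0627), and passed it in 8 of 17 alternative fits, among them array number as a block (limma adjusted p = 0.013) and an offset of 64 (0.0252); over all 17 its adjusted p ran from 0.013 to 0.241. Rad50, the tethering subunit, did not pass (log2 difference 0.37 ± 0.22 SE, adjusted p = 0.214). Mdc1, the scaffold that reads the damage mark on chromatin and whose promoter stretch is printed above, was 1.48-fold higher in GFP+ (log2 difference 0.57 ± 0.21 SE, adjusted p = 0.0424). That call was lost without GFP+ array 2 or 3, without any 1 RFP+ array (adjusted p up to 0.153), on leaving out both arrays numbered 1 (0.0839), with median centring (0.0527) and with an offset of 1 (0.0595). Trp53bp1, whose product favours end joining over resection, had means of 2329 ± 421 against 3094 ± 412. All its RFP+ arrays lay above its GFP+ arrays, but it did not pass (log2 difference -0.41 ± 0.21 SE, adjusted p = 0.146).

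**Figure D2:**
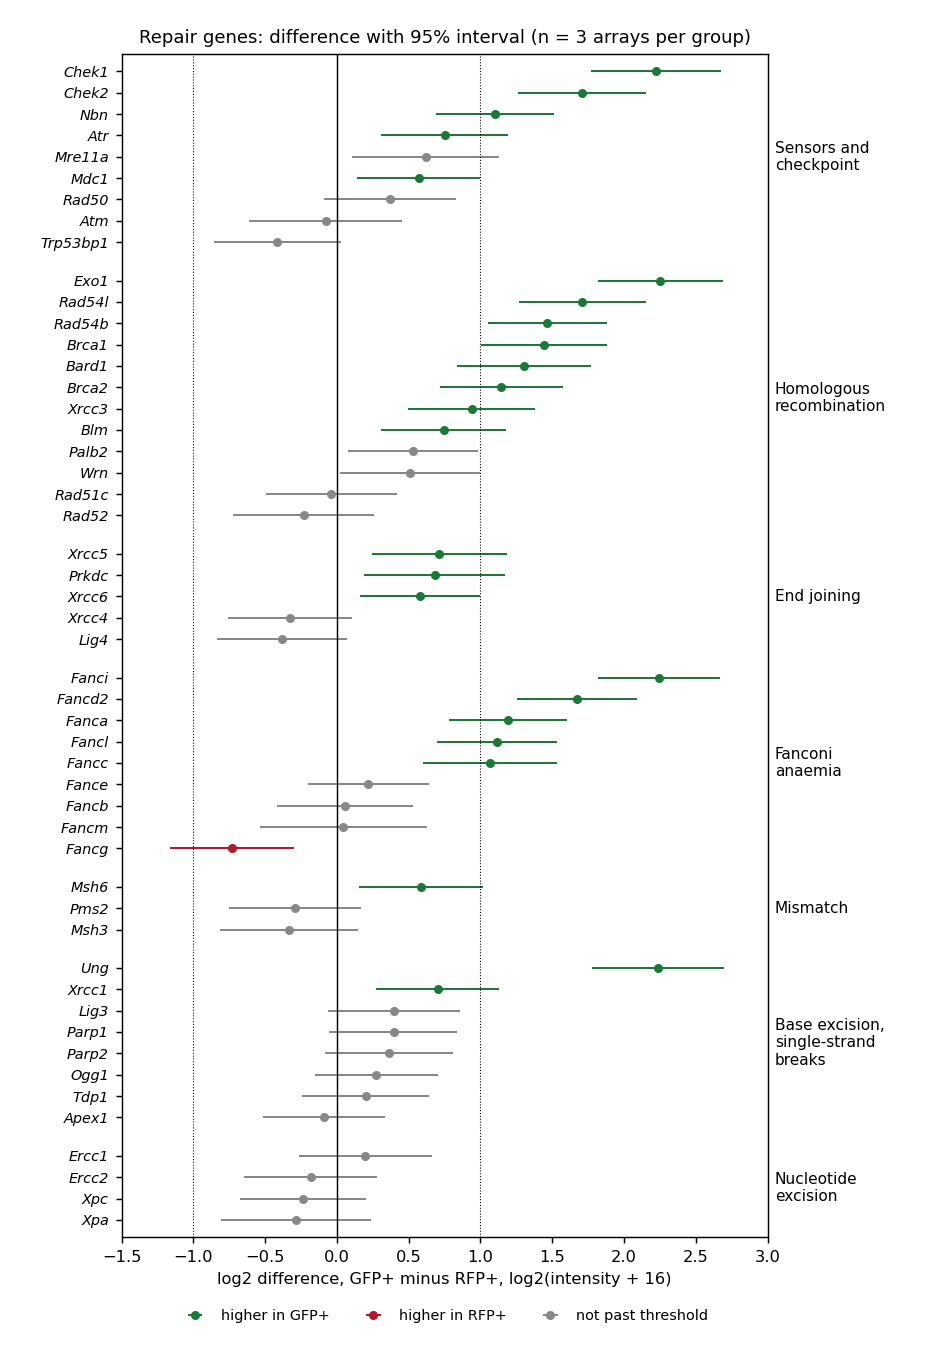
Log2 difference (horizontal axis, progenitors minus neurons, of log2(intensity + 16)) of each of the 50 measured repair genes with its 95% limma interval, grouped by pathway, from 3 arrays per group; dotted lines mark a 2-fold difference. The largest differences, Exo1, Fanci, Ung and Chek1, lie between 2.22 and 2.25, Fancg is the only gene past the threshold on the negative side, and the intervals of all nucleotide excision genes cross 0.

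Of 12 measured homologous recombination genes, 8 were higher in the progenitors and 4 did not pass (median log2 difference 1.04). Exo1, the exonuclease that resects broken ends, read 457, 350.4 and 370.3 in GFP+ and 57.6, 83.8 and 68.3 in RFP+, 4.76-fold higher in GFP+ (log2 difference 2.25 ± 0.21 SE, adjusted p = 6.85e-08). Its RFP+ arrays all lay under the olfactory receptor percentile, and the log2 difference moved from 1.77 with an offset of 64 to 2.48 with an offset of 1. Brca1, which promotes resection and the loading of the recombinase, read 545, 415 and 602 in GFP+ and 196, 155 and 190.1 in RFP+, 2.72-fold higher in GFP+ (log2 difference 1.44 ± 0.21 SE, adjusted p = 2.16e-05). Its partner in a ubiquitin ligase, Bard1, read 305, 374 and 372 in GFP+ and 161, 154 and 91.6 in RFP+ (2.47-fold, log2 difference 1.30 ± 0.22 SE, adjusted p = 1.37e-04). RFP+ array 3 was the lowest for Bard1, and all 3 of its probe sets were higher in GFP+, at log2 differences of 1.30, 1.45 and 1.495. The RFP+ mean of Bard1, 135.6, lay under the olfactory receptor percentile, and its log2 difference ran from 1.07 (offset 64) to 1.40 (offset 1).

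Brca2, which loads the recombinase onto single strands, read 464, 584 and 587 in GFP+ and 254, 202 and 257 in RFP+, 2.21-fold higher in GFP+ (log2 difference 1.15 ± 0.20 SE, adjusted p = 2.14e-04). Palb2, the bridge between the products of Brca1 and Brca2, was dim in both groups at 204 ± 55.0 against 134 ± 16.5, each mean under its group's olfactory receptor percentile. It did not pass (log2 difference 0.53 ± 0.22 SE, adjusted p = 0.0734), although its groups did not overlap, and it passed in 4 of 17 alternative fits: array number as a block, fixed (limma adjusted p = 0.0301) or random (0.0212), without the dimmest 30% of genes (0.0448) and without GFP+ array 1 (0.0456). Brca1 and Brca2 thus differed at least 2-fold, and the gene of the bridging protein lay close to background in both groups. The RFP+ mean of Brca1, 180, also lay under that group's percentile. Its log2 difference ran from 1.25 with an offset of 64 to 1.52 with an offset of 1.

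The motor protein genes that drive strand invasion moved together. Rad54l read 819.6, 536 and 632 in GFP+ and 172, 207 and 188 in RFP+, 3.27-fold higher in GFP+ (log2 difference 1.71 ± 0.21 SE, adjusted p = 2.84e-06). Its relative Rad54b read 546, 596 and 656 in GFP+ and 204, 192 and 224 in RFP+, 2.76-fold higher (log2 difference 1.47 ± 0.20 SE, adjusted p = 8.63e-06). In both, every GFP+ array was more than 2-fold above every RFP+ array. Among the recombinase paralogues, Xrcc3 was 1.92-fold higher in GFP+ (log2 difference 0.94 ± 0.21 SE, adjusted p = 0.00188; 0.0511 without both arrays numbered 1), whereas Rad51c had a difference near 0 (-0.04 ± 0.22 SE, 95% interval -0.50 to 0.42). Rad52, an annealing factor, did not pass either (log2 difference -0.23 ± 0.24 SE, adjusted p = 0.478), and its RFP+ arrays spread from 1047 to 2069. Of the RecQ helicase genes, Blm was 1.67-fold higher in GFP+ (log2 difference 0.74 ± 0.21 SE, adjusted p = 0.0102), and Wrn did not pass (log2 difference 0.51 ± 0.23 SE, adjusted p = 0.108) except when array number was a block (limma adjusted p = 0.0494). The RFP+ means of Rad54l, Rad54b and Xrcc3 (189, 207 and 161) lay under the olfactory receptor percentile. Their log2 differences ran from 1.505 (offset 64) to 1.785 (offset 1) for Rad54l, 1.29 to 1.53 for Rad54b and 0.78 to 1.005 for Xrcc3.

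**Figure D3:**
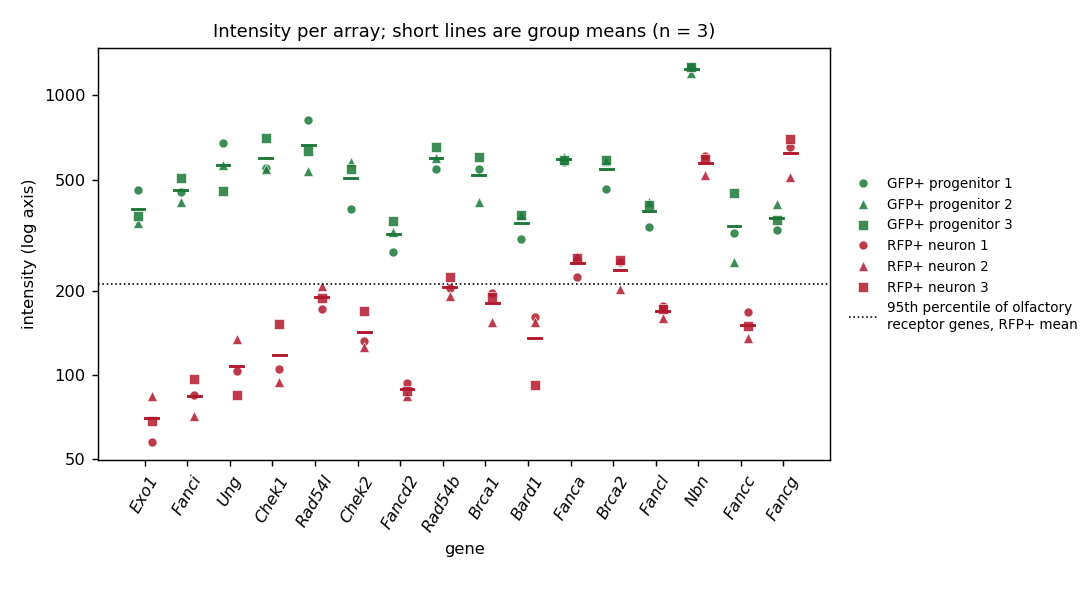
Intensity per array (vertical log axis) of the 15 repair genes that were at least 2-fold higher in GFP+ progenitors and of Fancg, with 3 arrays per group as points and group means as short lines; the dotted line is the RFP+ mean of the olfactory receptor 95th percentile, 210.6. In every gene shown the groups do not overlap, and for 12 of the 15 genes higher in GFP+ the RFP+ mean lies under the dotted line.

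Of 9 Fanconi anaemia genes, 5 were higher in GFP+, 1 in RFP+ and 3 did not pass (median log2 difference 1.07). The core complex is a ubiquitin ligase whose substrate is the pair encoded by Fancd2 and Fanci. Fanci read 451, 417 and 505 in GFP+ and 84.3, 71.3 and 96.8 in RFP+, 4.74-fold higher in GFP+ (log2 difference 2.25 ± 0.20 SE, adjusted p = 5.05e-08). Fancd2 read 276, 325 and 356 in GFP+ and 93.8, 84.2 and 87.7 in RFP+, 3.19-fold higher (log2 difference 1.67 ± 0.20 SE, adjusted p = 1.75e-06). In the neurons both genes of the substrate pair lay under the olfactory receptor percentile on all arrays. Their log2 differences ran from 1.82 (offset 64) to 2.44 (offset 1) for Fanci and from 1.32 to 1.83 for Fancd2.

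Within the core complex the members differed in direction. Fancl, the ligase subunit, read 339, 416 and 406 in GFP+ and 177, 159 and 172 in RFP+, 2.17-fold higher in GFP+ (log2 difference 1.11 ± 0.20 SE, adjusted p = 2.03e-04). Fanca read 578, 604 and 588 in GFP+ and 223, 266 and 262 in RFP+, 2.28-fold higher (log2 difference 1.19 ± 0.20 SE, adjusted p = 9.09e-05), with little spread among the GFP+ arrays. Fancc read 322, 254 and 448 in GFP+ and 168, 136 and 149 in RFP+, 2.09-fold higher (log2 difference 1.07 ± 0.22 SE, adjusted p = 9.41e-04). These 3 subunit genes had no array of one group inside the range of the other. The RFP+ means of Fancl and Fancc, 169.5 and 151, lay under the olfactory receptor percentile. Their log2 differences ran from 0.95 (offset 64) to 1.18 (offset 1) for Fancl and from 0.89 to 1.14 for Fancc.

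Fancg, another core subunit and the 1 repair gene higher in the neurons, read 330.0, 408 and 357 in GFP+ and 652, 509 and 698 in RFP+, 1.66-fold higher in RFP+ (log2 difference -0.73 ± 0.21 SE, adjusted p = 0.0107). All RFP+ arrays lay above all GFP+ arrays. The call was lost without RFP+ array 1 (adjusted p = 0.0515), without RFP+ array 3 (0.0547) and without both arrays numbered 1 (0.123), with the direction kept. The remaining core or anchor genes did not pass: Fance had a log2 difference of 0.22 ± 0.20 SE, Fancb 0.05 ± 0.23 SE and Fancm, which anchors the complex to DNA, 0.04 ± 0.28 SE. Fancm had the largest SE of all 50 genes, with GFP+ arrays from 155 to 398.

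Of 5 end joining genes, 3 were higher in GFP+ and 2 did not pass (median log2 difference 0.58). Xrcc5 and Xrcc6 encode the Ku subunits that cap broken ends, and Prkdc encodes the kinase they recruit. Xrcc5 read 1289, 1210.2 and 1854 in GFP+ and 732, 809 and 1084 in RFP+, 1.64-fold higher in GFP+ (log2 difference 0.71 ± 0.23 SE, adjusted p = 0.0211). Xrcc6 read 1202, 1184 and 1358 in GFP+ and 833, 737 and 927 in RFP+, 1.49-fold higher (log2 difference 0.58 ± 0.20 SE, adjusted p = 0.0347). Prkdc read 312, 432 and 644 in GFP+ and 268, 289 and 255 in RFP+, 1.6-fold higher (log2 difference 0.68 ± 0.24 SE, adjusted p = 0.0346). In all 3 genes GFP+ array 3 was the highest, and no RFP+ array reached the lowest GFP+ array.

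Each of these 3 calls was lost on leaving out any of several arrays, with the direction kept. Without GFP+ array 3 the log2 difference was 0.53 for Xrcc5 (adjusted p = 0.0958), 0.52 for Xrcc6 (0.086) and 0.42 for Prkdc (0.176). In the other settings with 1 array left out that ended a call, it was 0.60 to 0.67 for Xrcc5, 0.496 to 0.60 for Xrcc6 and 0.64 to 0.73 for Prkdc. Each was also lost without RFP+ array 1 or 2, Xrcc6 without GFP+ array 1 (0.0522), Prkdc without GFP+ array 2, without RFP+ array 3 or with an offset of 1 (0.0694), and both Ku genes without both arrays numbered 1 (0.122 and 0.125). The ligase step did not pass: the ligase gene Lig4 had means of 593 ± 135 against 765 ± 74.7 (log2 difference -0.38 ± 0.22 SE, adjusted p = 0.194) and its scaffold gene Xrcc4 779 ± 129 against 976 ± 92.2 (log2 difference -0.33 ± 0.21 SE, adjusted p = 0.243). All RFP+ arrays were above all GFP+ arrays for Lig4 but not for Xrcc4. The difference between the Ku and ligase genes was not tested.

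Mismatch repair was represented by 3 genes. Msh6, which recognises single mismatches, was 1.5-fold higher in GFP+ at 1593 ± 195 against 1059 ± 158 (SD, n = 3 each; log2 difference 0.59 ± 0.21 SE, adjusted p = 0.0381). Its groups did not overlap, but the call was lost without GFP+ array 1 or 2 or any 1 RFP+ array (adjusted p up to 0.168), on leaving out both arrays numbered 1 (0.156), with median centring (0.05) and with an offset of 1 (0.0563). Msh3, which recognises small loops, went from 430 to 722 in GFP+ and 575 to 854 in RFP+ (log2 difference -0.34 ± 0.23 SE, adjusted p = 0.283). Pms2, the endonuclease subunit, did not pass either (log2 difference -0.29 ± 0.22 SE, adjusted p = 0.328). The means of both lay slightly higher in RFP+ with overlapping groups.

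Of 8 base excision and single-strand break repair genes, Ung and Xrcc1 were higher in GFP+ and 6 did not pass (median log2 difference 0.38). Ung encodes the glycosylase that removes uracil from DNA, including uracil built in during replication. It read 677, 564 and 453 in GFP+ and 103, 134 and 84.6 in RFP+, 4.71-fold higher in GFP+ (log2 difference 2.24 ± 0.22 SE, adjusted p = 1.57e-07), and 2.39 or 1.87 on the log2 scale with an offset of 1 or 64. The other glycosylase gene of the list, Ogg1, which removes oxidised guanine, did not pass (log2 difference 0.28 ± 0.20 SE, adjusted p = 0.326). Apex1, the endonuclease that cuts the site a glycosylase leaves, had means of 3822 ± 527 against 4048 ± 272 (SD, n = 3 each), and its 95% interval of -0.51 to 0.33 held no 2-fold change (log2 difference -0.09 ± 0.20 SE, adjusted p = 0.767).

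Single-strand breaks are marked by the polymerases encoded by Parp1 and Parp2 and closed through the scaffold encoded by Xrcc1 and its ligase partner from Lig3. Parp1 read 3889, 2880.2 and 3796 in GFP+ and 2219, 2712 and 3102 in RFP+ (log2 difference 0.39 ± 0.21 SE, adjusted p = 0.172). GFP+ array 2 fell inside the range of the RFP+ arrays, so the groups overlapped. Parp2 also did not pass (log2 difference 0.36 ± 0.21 SE, adjusted p = 0.21). Xrcc1 was 1.63-fold higher in GFP+ at 1046 ± 165 against 632 ± 42.6 (log2 difference 0.70 ± 0.20 SE, adjusted p = 0.0132), a call that ended without RFP+ array 3 (0.0501) and without both arrays numbered 1 (0.121). Its partner Lig3 did not pass (log2 difference 0.40 ± 0.22 SE, adjusted p = 0.183), nor did Tdp1, which clears stalled topoisomerase from DNA ends and whose loss causes a form of ataxia (log2 difference 0.20 ± 0.21 SE, adjusted p = 0.502).

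Nucleotide excision repair, which removes bulky and ultraviolet lesions, had no gene past the threshold among the 4 measured (median log2 difference -0.21). Xpc, a lesion sensor, had a log2 difference of -0.24 ± 0.21 SE. Xpa, which verifies the lesion, had -0.29 ± 0.25 SE. The helicase gene Ercc2 had -0.18 ± 0.22 SE and the nuclease subunit gene Ercc1 0.20 ± 0.22 SE, with adjusted p from 0.404 to 0.555. All 4 intervals stayed within a 2-fold change in either direction. A smaller difference may not be detectable at this spread. Of the 25 members that did not pass, 24 had an interval within 2-fold. The exception was Mre11a, with an upper bound of 1.13.

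**Figure D4:**
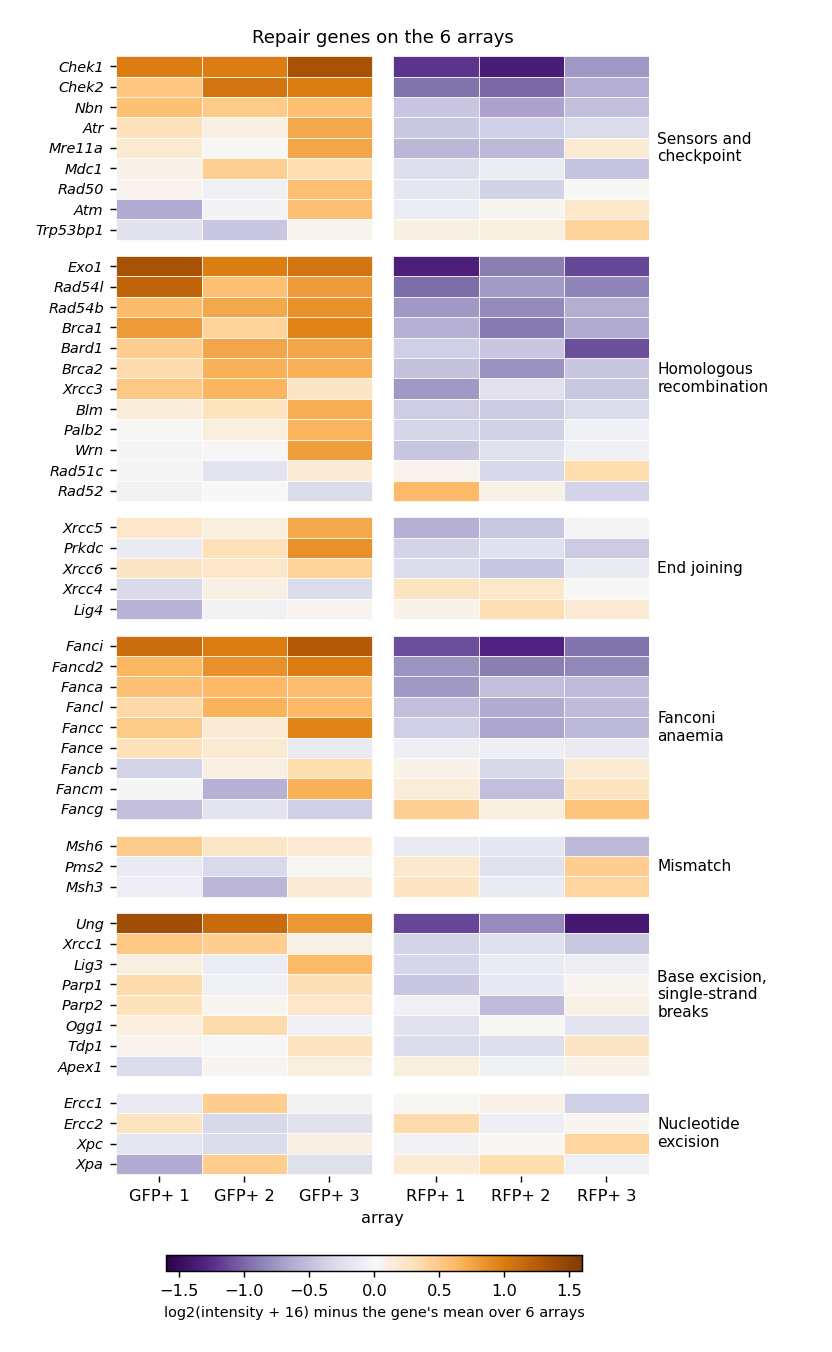
Each repair gene (rows, by pathway) on each of the 6 arrays (columns), as log2(intensity + 16) minus the gene's mean over the arrays; orange is above and purple below that mean. Most checkpoint, recombination and Fanconi genes change colour between the groups, and most excision genes do not. Among the GFP+ arrays, array 3 is the highest for 29 of the 50 genes, Atm, Prkdc and Wrn among them.

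Other repair genes, 75 measured of 85 listed from general knowledge with earlier results of these data known, were read beside the members. Of these, 25 (33.3%) were higher in GFP+, beside 13.7% of all genes, and 4 higher in RFP+, beside 16.2%. The other 46 did not pass, and the median log2 difference was 0.41. With array number as a fixed or random block, 34 or 37 were higher in GFP+. The same blocks raised the calls over all 19938 genes, in either direction, from 5973 to 7366 or 8178. The largest differences in the progenitors were Hus1, a subunit of the checkpoint clamp (3.98-fold, log2 difference 1.99 ± 0.21 SE, adjusted p = 3.40e-07), the glycosylase gene Neil3 (3.86-fold, log2 difference 1.95 ± 0.21 SE, adjusted p = 3.80e-07) and Clspn, an adaptor for the checkpoint kinase encoded by Chek1 (3.73-fold, log2 difference 1.90 ± 0.20 SE, adjusted p = 3.32e-07). The largest in the neurons were Polb, the gap-filling polymerase of base excision repair (1.92-fold, log2 difference -0.94 ± 0.20 SE, adjusted p = 0.00133), the glycosylase gene Neil1 (1.62-fold, log2 difference -0.70 ± 0.21 SE, adjusted p = 0.0165) and Ercc8, which acts in repair of transcribed genes (1.53-fold, log2 difference -0.61 ± 0.20 SE, adjusted p = 0.0244). Neil1 and Neil3, of 1 glycosylase family, were thus called in opposite directions. Polb read 1369, 1311 and 1599.7 in GFP+ and 3146, 2415 and 2717 in RFP+, with no overlap, whereas Neil1 was dim, with a GFP+ mean under the olfactory receptor percentile. The count higher in RFP+ was 8 when array number was a fixed block and 9 when it was a random block. It was 7 with quantile normalization, median centring, an offset of 64 or without the dimmest 30% of genes. It was 2 without RFP+ array 2, and 1 without RFP+ array 1 or 3 or without both arrays numbered 1.

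Target genes of p53, the transcription factor that the damage kinases activate, were also read. Of 18 measured, 4 were higher in GFP+ and 4 in RFP+, 22.2% each way beside 13.7% and 16.2% of all genes (median log2 difference -0.28). Plk2, a polo-like kinase gene that is also induced by neuronal activity, read 802, 895 and 1019.8 in GFP+ and 3684, 2907 and 3363 in RFP+, 3.62-fold higher in RFP+ (log2 difference -1.85 ± 0.20 SE, adjusted p = 5.98e-07). Pmaip1, a pro-death gene, was dim and 1.77-fold higher in RFP+ (log2 difference -0.82 ± 0.21 SE, adjusted p = 0.0055), and Ccng1 was 1.72-fold higher there (log2 difference -0.78 ± 0.21 SE, adjusted p = 0.00697). In GFP+, Phlda3 (1.73-fold, log2 difference 0.79 ± 0.21 SE, adjusted p = 0.00798), Zmat3 (1.72-fold, log2 difference 0.78 ± 0.22 SE, adjusted p = 0.00939) and Sesn2 (1.59-fold, log2 difference 0.67 ± 0.22 SE, adjusted p = 0.0279) were higher. Phlda3, Sesn2 and Pmaip1 had both group means under the olfactory receptor percentile, so their folds are those of near-background levels. The count higher in GFP+ was 2 without GFP+ array 1, without RFP+ array 3 or without both arrays numbered 1, and the last setting also left 2 higher in RFP+.

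Several repair genes start head to head with another gene. In RefSeq (GRCm38.p6), 16 of the 42 genes with a promoter window had a gene on the opposite strand starting within 1000 bases upstream, and 14 of these partners were measured, of which 2 passed the threshold, beside 30% of all genes. Brca1 starts 152 bases from Nbr1, an autophagy receptor gene, whose log2 difference did not pass (0.31 ± 0.22 SE, adjusted p = 0.297) beside 1.44 for Brca1. Atm starts 376 bases from Npat, a regulator of histone genes at S phase entry, and neither passed (Npat 0.44 ± 0.23 SE, adjusted p = 0.159). Xrcc6 lies 149 bases from Desi1, whose difference had the opposite sign (-0.44 ± 0.21 SE, adjusted p = 0.121). Only for Xrcc3 and Zfyve21, 291 bases apart, did both genes pass, and both were higher in GFP+ (Zfyve21 0.57 ± 0.20 SE, adjusted p = 0.0358). The other partner past the threshold was Tex14, 111 bases from Rad51c, which was higher in RFP+ (log2 difference -0.85 ± 0.22 SE, adjusted p = 0.00549), near background in both groups, while Rad51c did not pass. The difference within pairs was not tested.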

How the data were processed

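The values are probe set intensities on a linear scale, as deposited by the authors, made with the Affymetrix Expression Console per the submitters' processing notes; its background correction, normalization and summarisation are not given in the sources used here. Depth has no meaning for arrays, and their number, 3 per group, limits the precision.

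Of 35557 probe sets, 21789 carried 1 gene symbol, 1621 several, and 12147 are unnamed here. Where a gene had several probe sets, the one with the highest mean log2 value stood for it, giving 19938 genes, all fitted together in limma 3.58.1 (R 4.3.3; lmFit, eBayes, two-sided, Benjamini-Hochberg over all genes). Members and lists were chosen with earlier results of these data known. Members were named by role, with values per array for those that changed at least 2-fold, those higher in RFP+, and Atm, Atr, Prkdc, Parp1, Xrcc5 and Xrcc6; for 2 context lists the 3 largest passing genes each way were named. Pairs of same-numbered arrays deviated together (correlations 0.204, 0.288 and 0.361 across genes), so by that check the numbers pair the samples; the labels do not say what they stand for, and the fit without the block was kept. Alternatives were that block (fixed or random), 2 normalizations, a filter, offsets of 1 and 64, averaged probe sets, a trend with robust moderation, array weights, a 2-fold threshold and leaving out arrays. Tables were made with Python 3.11.15, and RefSeq windows were searched for exact letters.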

Additional observations from a re-analysis of the deposited data

How the results depend on the processing

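Over 17 alternative fits, 16 of the 25 calls held in every one (Chek1, Chek2, Nbn, Brca1, Brca2, Bard1, Rad54l, Rad54b, Blm, Exo1, Fanca, Fancc, Fancd2, Fanci, Fancl and Ung), 22 members passed in none, and 12 changed side in at least 1. No called member changed sign. The number higher in GFP+ ran from 17 (without both arrays numbered 1) to 27 (replicate number as a block, fixed or random), and the median log2 difference from 0.39 (without GFP+ array 3) to 0.61. Calls over all 19938 genes, in either direction, moved as well. They numbered 5973 in the main fit, 3848 without both arrays numbered 1, 7366 with the fixed block and 8178 with the random block. Leaving out 1 array gave 0 or 1 members higher in RFP+, and leaving out both arrays numbered 1 gave 0. With a 2-fold threshold and the offset of 16, members higher in GFP+ numbered 15 and in RFP+ 0. Other repair genes gave 14 and 0, and p53 targets 0 and 1. An offset of 64 took Fancc (0.89) and Fancl (0.95) under 2-fold, and an offset of 1 took Xrcc3 (1.005) over it. Leaving out GFP+ array 3 or RFP+ array 2 also took Fancc under 2-fold (0.86 and 0.999) and Xrcc3 over it (1.052 and 1.06). Other repair genes higher in GFP+ numbered 34 with the replicate block and 37 with a random block, and those higher in RFP+ 8 with the replicate block, 9 with a random block, 7 with quantile normalization, median centring, an offset of 64 or the filter, 1 to 6 without 1 array and 1 without both arrays numbered 1. For p53 targets, leaving out 1 array gave 2 to 4 higher in GFP+, and leaving out both arrays numbered 1 gave 2 in each direction. The block moved the calls of Mre11a, Palb2 and Wrn and no other member. Signs turned only in members near 0: Atm (-0.39 to 0.23 without 1 array, 0.15 without both numbered 1), Rad51c (-0.215 to 0.118), Rad52 (-0.468 to 0.018), Fancb (-0.102 to 0.249), Fancm (-0.286 to 0.35; -0.025 with array weights) and Apex1 (-0.17 to 0.026; 0.066 without both numbered 1). The causes of these changes were not tested. The median over all genes, -0.08, was -0.05 with quantile normalization and -0.12 with median centring. Of the 50 members, 13 had a mean near background in RFP+ only and 1 in both groups, which limits their folds.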

Other observations

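The members were not spread evenly over the arrays of a group. GFP+ array 3 was the highest GFP+ array for 29 of the 50 repair genes (58.0%), against 33.4% of all genes, and RFP+ array 3 was the highest RFP+ array for 26 (52%), against 35.7% of all genes. GFP+ array 3 also had the highest endothelial (7110.4) and mural (7255.3) marker sums of the 6 arrays, and the part of those cells in the pattern was not tested. Fancm, Atm, Prkdc and Wrn, whose GFP+ arrays spread widely, had their highest value on GFP+ array 3. Xpa, also widely spread, had it on GFP+ array 2. GFP+ array 1 was the highest for 9 members (18%, against 29.6% of all genes), Ung, Exo1 and Rad54l among them. Its endothelial sum (2240.0) was the lowest of the GFP+ arrays and its mural sum was 6929.4, and a link to these genes was not tested.

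Among members with more than 1 probe set, those of Bard1 had differences of like size, and those of Nbn differed in size: its second probe set, dim in both groups at means of 132 and 127, had a log2 difference of 0.05 ± 0.21 SE (adjusted p = 0.872 over all probe sets, limma). The second probe set of Tdp1 was dim as well (means of 181 and 137; log2 difference 0.34 ± 0.25 SE).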
